A study of Mus musculus with 12 samples.

Results

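The transcripts described here are those of 3 FoxO transcription factors (Foxo1, Foxo3 and Foxo4), 4 ubiquitin ligase components of muscle (Fbxo32, Trim63, Fbxo30 and Fbxo31) and Klf15, a Krüppel-like transcription factor. Membership goes by gene symbol: every probe set whose platform annotation gives exactly 1 of these 8 symbols was taken, giving 20 of the 45101 probe sets on the array. A further probe set that lists Foxo3 together with a second gene was not used. All 20 were found in RefSeq by gene identifier under the same symbol.

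RNA of the gastrocnemius, a calf muscle, was hybridised to 12 Affymetrix arrays. All samples were from male mice of generation 37 of a selection experiment, at a mean age of 84 days (79 to 86 days). The 6 mini-muscle samples came from line 3 and show an inherited small-muscle phenotype, and the 6 regular-muscle samples came from line 8. Both lines were bred for high voluntary wheel running, so the unselected control lines of the experiment are in neither group. RNA of mini-muscle mice came from both limbs of each animal and that of regular-muscle mice from 1 limb. Phenotype, line and sampling divide the arrays in the same way and cannot be told apart, and each phenotype is represented by 1 line. In whole muscle, fewer cells of a type and less RNA per cell cannot be told apart either.

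FoxO proteins are forkhead factors that act at the end of the insulin and insulin-like growth factor pathway. The kinase Akt phosphorylates them, they bind 14-3-3 proteins and leave the nucleus; when Akt is inactive they enter the nucleus and activate genes of protein breakdown and autophagy. Fbxo32 (atrogin-1, or MAFbx) and Trim63 (MuRF1) are the classical ligase genes of muscle atrophy. Fbxo32 is the substrate receptor of an SCF ligase, in which Skp1 and Cul1 are the scaffold, whereas Trim63 is a RING ligase bound to the sarcomere. Fbxo30 (MUSA1) and Fbxo31 are further F-box proteins of SCF ligases that FoxO factors activate in wasting muscle. Klf15 is induced by glucocorticoids and drives the breakdown of branched-chain amino acids.

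One promoter is shown because it sets a FoxO motif beside a ligase gene. RefSeq promoter windows (build GRCm38.p6), running from 250 bases before to 50 bases after the transcript start, were given for 6 of the 8 members, all but Foxo4 and Fbxo32. The windows were searched on both strands for the FoxO core GTAAACA, the insulin response core CAAAACA, the E-box CAGCTG bound by myogenic factors, and a full glucocorticoid response element. The Trim63 window, at chr4:134314870-134315169 on the plus strand, held a FoxO core on the minus strand from base -194 to base -188 relative to the start, shown in capitals:

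Trim63: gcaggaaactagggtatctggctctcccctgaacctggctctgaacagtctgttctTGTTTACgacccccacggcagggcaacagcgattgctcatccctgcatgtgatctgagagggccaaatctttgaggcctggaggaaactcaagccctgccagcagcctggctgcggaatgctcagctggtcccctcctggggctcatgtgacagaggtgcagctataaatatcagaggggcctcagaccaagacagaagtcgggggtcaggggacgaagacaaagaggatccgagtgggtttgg

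The same window held 1 E-box, from base -72 to base -67, and no exact match to the glucocorticoid element. The letters directly before the FoxO core differ from that element in 1 of its fixed letters. Only exact matches were searched for, so near matches were not counted in any window. Among all 32851 windows of this length, 3.65% hold the FoxO core, 6.28% the insulin response core, 16.3% the E-box and 3 the glucocorticoid element. The windows of Foxo1, Foxo3, Fbxo30, Fbxo31 and Klf15 held none of the 4 motifs. A match describes the letters in the window and is not evidence of binding in these muscles.

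On the brightest probe set of each gene, 1 of the 8 members was called higher in mini-muscle and 1 lower, and the higher one, Fbxo32, was not higher on its other 2 probe sets. For each gene the brightest probe set was tested with limma among the 9097 genes above a dim limit (the median of the gene means, log2 8.56), and all 8 members passed that limit. Fbxo32 was called higher and Foxo4 lower at an adjusted p under 0.05, and the other 6 members did not pass. These are 2 of 8 members, a share close to the 26.7% of all genes tested that were called (14.9% higher and 11.8% lower). The 2 groups of arrays overlapped for all 8 members. They did not overlap for 13% of the genes tested, a share too small for 8 members to be told apart from all genes. Over all genes tested the median signed difference was 0.03 on the log2 scale and the median absolute difference 0.22, so the differences of Foxo1, Foxo3, Trim63, Fbxo30 and Fbxo31 (0.18 to 0.31 in size) were near that of a typical gene. A difference is the mini-muscle mean minus the regular-muscle mean, with the standard error (SE) of the fit and n = 6 arrays per group, and intensities are linear MAS5 units.

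**Figure D1:**
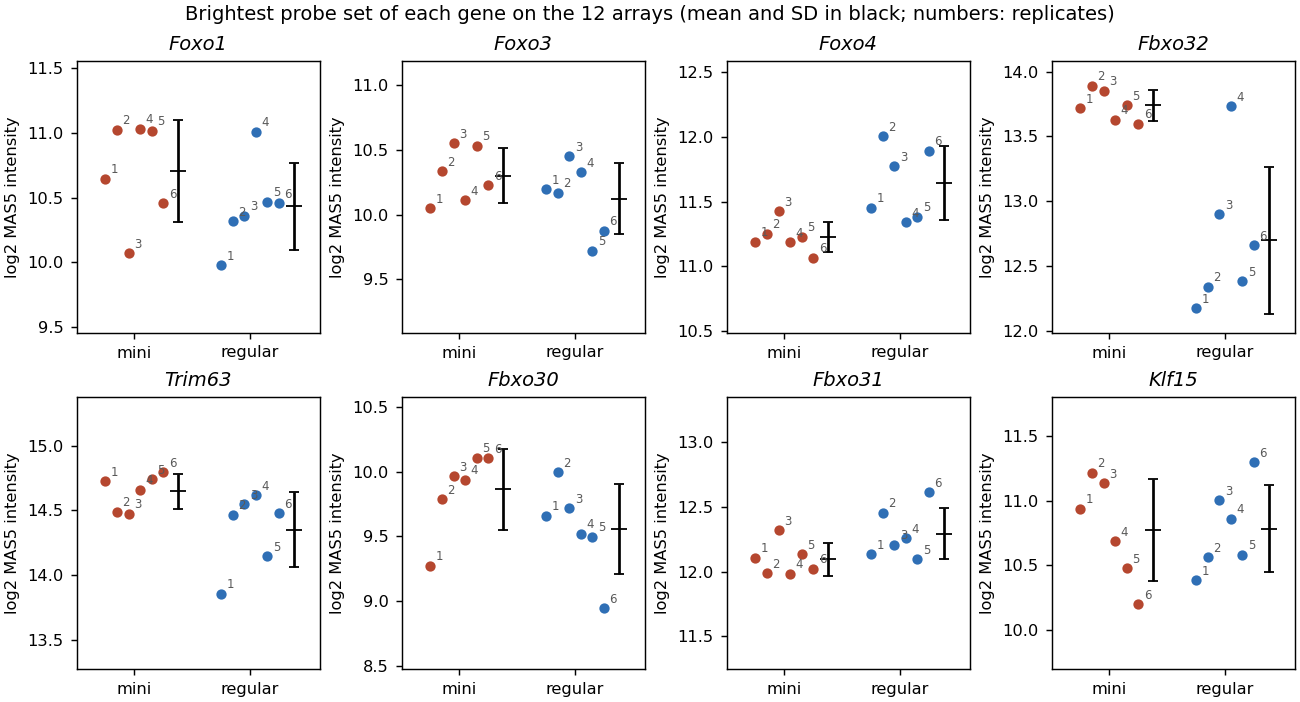
Log2 MAS5 intensity (vertical axis, each panel spanning the same log2 range) of the brightest probe set of each gene on the 6 mini-muscle (red) and 6 regular-muscle (blue) arrays, with replicate numbers and the group mean ± SD in black. The Fbxo32 value of regular-muscle replicate 4 lies among the mini-muscle arrays, and 4 of 6 regular-muscle arrays lie above every mini-muscle array for Foxo4.

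Among the FoxO factors, Foxo4 transcripts were 1.34-fold lower in mini-muscle, while Foxo1 and Foxo3 did not pass the test. Foxo4 intensity on its bright probe set, 1456753_at, had a lowest, median and highest value of 2145, 2370 and 2753 on mini-muscle arrays and 2594, 3156 and 4118 on regular-muscle arrays. Thus 5 of 6 mini-muscle arrays lay below every regular-muscle array, and mini-muscle replicate 3 alone overlapped. On the log2 scale the group means were 11.23 ± 0.12 (SD) and 11.64 ± 0.29. The Foxo4 difference was -0.42 (SE 0.12, adjusted p = 0.014; two-sided exact permutation p = 0.0065 unadjusted, where 0.0022 is the smallest p the 924 assignments allow). The second Foxo4 probe set, 1422149_at, lay below the dim limit and differed by -0.19 (SE 0.33). The Foxo4 call ended with median centring of the arrays (-0.41, adjusted p = 0.069) and with the mean of both probe sets (-0.31, adjusted p = 0.30).

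Foxo1, the FoxO factor most often tied to the switch from glucose to fat as muscle fuel, was read by 4 probe sets. The brightest, 1416983_s_at, whose suffix marks probes that can match several transcripts, ranged from 1075 to 2098 intensity units in mini-muscle (median 1838) and from 1008 to 2064 in regular muscle (median 1361). The groups overlapped: 3 mini-muscle arrays lay above every regular-muscle array, and regular-muscle replicate 4 gave the 2064. Foxo1 differed by 0.28 (SE 0.18, adjusted p = 0.28; 95% interval -0.10 to 0.65). The platform annotation derives 2 further probe sets, 1416982_at and 1416981_at, from the same source sequence, and they gave -0.02 and 0.36 (SE 0.15 for both). 1416981_at had all 6 mini-muscle arrays between 885 and 1410 and all regular-muscle arrays between 718 and 1080, with 4 mini-muscle arrays above all regular-muscle ones (adjusted p = 0.17 over all single-gene probe sets). The remaining one, 1456529_at, was dim (medians 29.9 and 85.6) and differed by -0.59 with an SE of 0.77.

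Foxo3, which is active in most models of muscle wasting, did not pass on any of its 3 probe sets. Intensities on 1434831_a_at ran from 1059 to 1501 (median 1246) in mini-muscle and from 843 to 1401 (median 1163) in regular muscle, a difference of 0.18 (SE 0.14, adjusted p = 0.39; 95% interval -0.12 to 0.47). 1434832_at, from the same source sequence, gave 0.30 (SE 0.14, adjusted p = 0.25 over all single-gene probe sets). On it, mini-muscle arrays spread from 969 to 1782 around a regular-muscle range of 984 to 1135. The deviations of these 2 Foxo3 probe sets from their group means were not positively related across the 12 arrays (Pearson r = -0.39, Spearman rho = -0.41; r = -0.17 without the 2 arrays farthest from the median). The dim probe set, 1450236_at, gave 0.45 with an SE of 0.71.

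Fbxo32 gave the largest difference among the members and also the clearest disagreement between probe sets. On 1435265_at its intensity was 12414 at the lowest, 13591 at the median and 15210 at the highest in mini-muscle, and 4613, 5901 and 13606 in regular muscle. Of the 6 regular-muscle arrays, 5 lay below every mini-muscle array, and replicate 4, at 13606, lay inside the mini-muscle range. The mini-muscle arrays were close together, at 13.74 ± 0.12 (SD) on the log2 scale against 12.70 ± 0.57. Fbxo32 was 2.06-fold higher on this probe set (log2 1.04, SE 0.19, adjusted p = 3.7e-04; exact permutation p = 0.0087 unadjusted). Without regular-muscle replicate 4 the difference was 1.25.

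The other 2 Fbxo32 probe sets gave no such rise. 1417522_at ranged from 4130 to 6648 (median 5601) in mini-muscle and from 3426 to 10170 (median 6667) in regular muscle. 1448747_at ranged from 4586 to 6784 (median 5333) and from 3745 to 10327 (median 6243). On both, every mini-muscle value lay within the regular-muscle range, and regular-muscle replicate 4 was the highest of all 12 arrays. Their differences were -0.26 (SE 0.19, adjusted p = 0.53) and -0.17 (SE 0.17, adjusted p = 0.67) in the fit of all single-gene probe sets. Per the platform annotation, these 2 probe sets derive from 1 source sequence and 1435265_at from another. With the mean of all 3 probe sets, Fbxo32 differed by 0.20 and was not called (adjusted p = 0.52).

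**Figure D2:**
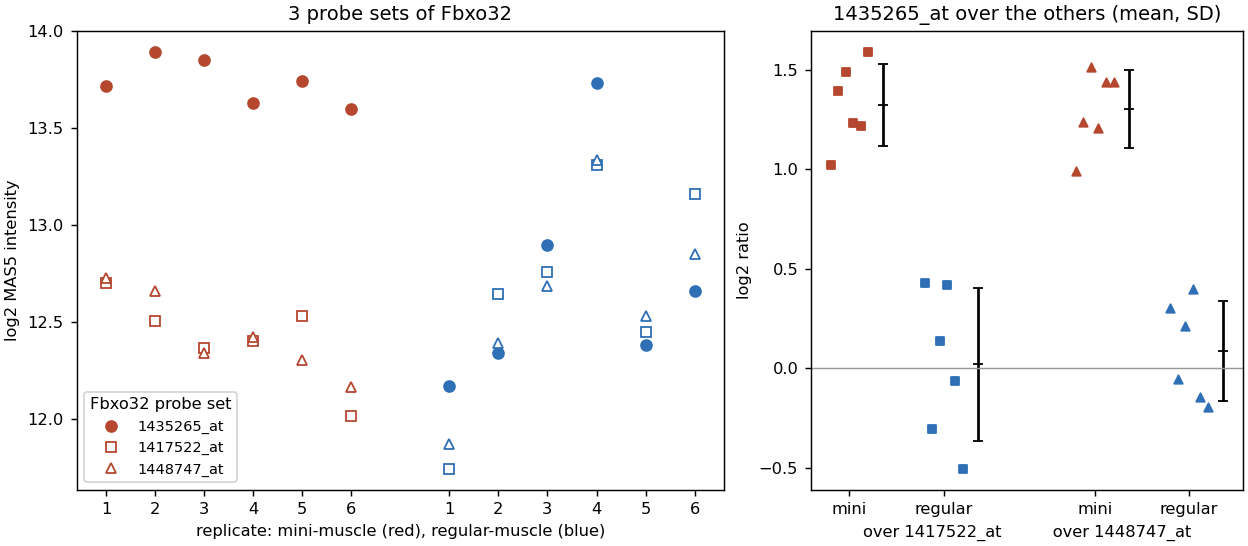
Left: log2 MAS5 intensity of the 3 Fbxo32 probe sets on each array, with mini-muscle in red and regular-muscle in blue. Right: log2 ratio of 1435265_at to each of the other 2 on the same array, with the group mean ± SD in black; the mini-muscle ratios of 0.99 to 1.59 all lie above the regular-muscle ratios of -0.51 to 0.43.

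The unequal change of the Fbxo32 probe sets was tested on the log2 ratio of 2 probe sets within each array, a test chosen after the disagreement was seen. It was fitted over all 5291 pairs in which a gene's brightest probe set is set against another one above the dim limit. The ratio of 1435265_at to 1417522_at was 1.02 to 1.59 in mini-muscle and -0.51 to 0.43 in regular muscle, and it changed by 1.30 (SE 0.15, adjusted p = 4.3e-05). The ratio to 1448747_at was 0.99 to 1.51 and -0.19 to 0.40, and it changed by 1.22 (SE 0.12, adjusted p = 9.1e-06). Neither ratio overlapped between the groups, regular-muscle replicate 4 included. Of all pairs, 6.33% were called and 4.03% did not overlap; of the 9 pairs of the members, the 2 of Fbxo32 were called and the 7 of Foxo1, Foxo3, Fbxo30 and Fbxo31 were not. Within groups the 3 probe sets did move together across the 12 arrays, with Pearson r of 0.93 (rho 0.85) between the 2 that share a source sequence, and 0.73 (rho 0.67) and 0.84 (rho 0.68) between them and 1435265_at. Without the 2 arrays farthest from the median, r was 0.79, 0.38 and 0.50. The relation of 1435265_at to the other 2 was stronger in regular muscle (r = 0.77 with 1417522_at and 0.90 with 1448747_at) than in mini-muscle (0.44 with each). A ratio shows that the probe sets changed unequally and not which of them reports the Fbxo32 transcript level.

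Trim63, read by 1 probe set, was 1.23-fold apart between the groups and did not pass the threshold. Its intensity ran from 22754 to 28392 (median 26503) in mini-muscle and from 14833 to 25122 (median 22750) in regular muscle. In mini-muscle 4 of 6 arrays lay above every regular-muscle array, and regular-muscle replicates 1 and 5 were the lowest at 14833 and 18108. The Trim63 difference was 0.30 (SE 0.11, 95% interval 0.06 to 0.53, adjusted p = 0.058; exact permutation p = 0.032 unadjusted). It passed after quantile normalization (0.34, adjusted p = 0.024), with array weights (0.30, adjusted p = 0.034), among only the brightest of the genes (0.30, adjusted p = 0.047) and without mini-muscle replicate 3 (0.33, adjusted p = 0.044), regular-muscle replicate 3 (0.33, adjusted p = 0.043) or regular-muscle replicate 4 (0.35, adjusted p = 0.027).

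Fbxo30 had a positive difference on all 4 of its probe sets, 1 of which passed. Its brightest probe set, 1429441_at, ranged from 618 to 1103 (median 989.9) against 492 to 1020 (median 772), and differed by 0.31 (SE 0.18, adjusted p = 0.23). 1453137_at, from the same source sequence, ranged from 842 to 1173 (median 1083) against 470 to 917 (median 632). On it, 5 of 6 mini-muscle arrays lay above every regular-muscle array, and Fbxo30 rose 1.63-fold (log2 0.71, SE 0.16, adjusted p = 0.0074 over all single-gene probe sets). 1436550_at, from a second source sequence, gave 0.60 (SE 0.21, adjusted p = 0.099) with mini-muscle replicate 1, at 603, as the only mini-muscle array inside the regular-muscle range of 372 to 879, and it passed without that array (0.74, adjusted p = 0.025). 1453136_at gave 0.14 (SE 0.22). With the mean of the 4 probe sets, Fbxo30 was called higher (0.44, adjusted p = 0.044).

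Fbxo31, which in proliferating cells directs cyclin D1 to breakdown, did not pass, and its 2 probe sets pointed in opposite directions. 1428926_at ranged from 4046 to 5117 (median 4289) in mini-muscle and from 4382 to 6264 (median 4816) in regular muscle, a difference of -0.20 (SE 0.10, adjusted p = 0.15). 1417969_at ranged from 1044 to 1339 (median 1235) and from 921 to 1335 (median 1019.8), a difference of 0.21 (SE 0.12, adjusted p = 0.38). The ratio between the 2 changed by -0.41 (SE 0.16) and did not pass (adjusted p = 0.14).

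Klf15 had the smallest difference of the 8. Its intensity ranged from 1176 to 2377 (median 1804) in mini-muscle and from 1337 to 2518 (median 1695) in regular muscle, and differed by -0.01 (SE 0.18, adjusted p = 0.98). The 95% interval, -0.38 to 0.36, leaves changes of Klf15 within those bounds undetected at this number of arrays.

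Over the 20 probe sets, 2 were called higher (1 of Fbxo32, 1 of Fbxo30) and 1 lower (Foxo4), beside 8.92% called among all 34958 single-gene probe sets and 19.5% among those above the dim limit. Of the 20 probe sets, 17 lay above that limit. The Foxo4 call on this scale is fragile, since it was lost without any 1 of 7 of the arrays (adjusted p 0.052 to 0.082). The 3 below the limit belong to Foxo1, Foxo3 and Foxo4.

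**Figure D3:**
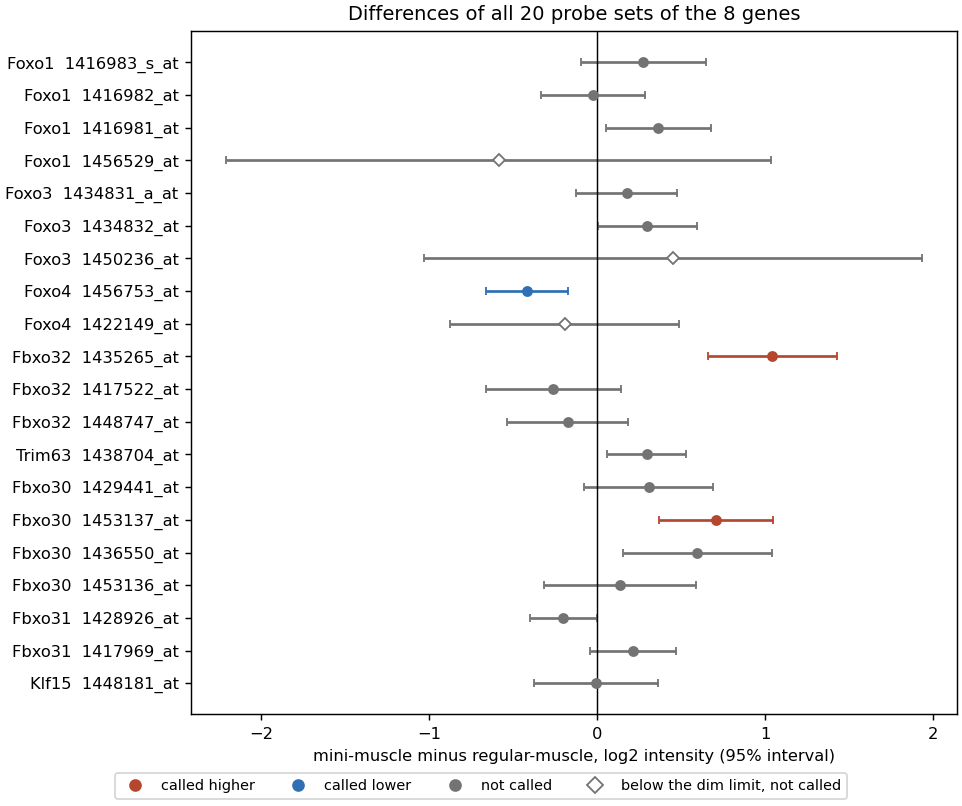
Difference in log2 intensity, mini-muscle minus regular-muscle (horizontal axis), with its 95% interval from limma, for all 20 probe sets of the 8 genes. Filled circles lie above the dim limit and open diamonds below it; the intervals of the 2 dim probe sets of Foxo1 and Foxo3 are the widest, and the Fbxo32 probe sets point in opposite directions.

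Across the arrays of a group, the members did not vary as 1 block. Over the 28 pairs of genes, the Pearson correlation of deviations from the group means over the 12 arrays ranged from -0.59 (Fbxo30 with Klf15) to 0.75 (Foxo4 with Fbxo31), with a median of 0.13. These values share libraries and the scaling of each array. For Foxo4 with Fbxo31, rho was 0.68 and r was 0.82 without the 2 arrays farthest from the Foxo4 median. Fbxo32 with Trim63 had r = 0.56 and rho = 0.45. Without the 2 arrays farthest from the Fbxo32 median their r was 0.01, so their relation rests on those arrays. Within groups r of Fbxo32 with Trim63 was -0.85 in mini-muscle and 0.71 in regular muscle.

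The genes whose deviations were most like those of each member, among the other 9096 genes tested, were taken as the 3 with the highest Pearson r. For Fbxo32 they were Actn2, the Z-disc alpha-actinin (r = 0.94, rho = 0.83), Myoz2, calsarcin of slow fibres (0.94, rho = 0.84), and Chst11, a chondroitin sulfotransferase (0.93, rho = 0.85). Actn2 and Myoz2 were themselves called higher (1.11 and 0.67). Both followed Fbxo32 mainly among regular-muscle arrays: within mini-muscle r was 0.13 for each. On regular-muscle replicate 4, the array with the highest Fbxo32 of its group, Actn2 was 43131 against 22963 to 33405 on the other 5 and Myoz2 23992 against 10943 to 18937. Without the 2 arrays farthest from the Fbxo32 median, r was 0.76 for Actn2, 0.79 for Myoz2 and 0.78 for Chst11.

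For Trim63 the 3 nearest were Atm, the DNA damage kinase, Cbfa2t2 and Tada3, both of transcriptional cofactor complexes (r = 0.90, 0.90 and 0.89; rho = 0.77, 0.83 and 0.73; r = 0.74, 0.85 and 0.81 without the 2 farthest arrays). For Foxo1 they were the sorting receptor Sort1, the deubiquitinase Usp22 and the nuclear receptor Rora (r = 0.94, 0.90 and 0.90; rho = 0.87, 0.85 and 0.86; r = 0.87, 0.83 and 0.91). Rora fell by 0.61 in mini-muscle, while Usp22 rose by 0.36. For Foxo4 they were Asb6, the laminin chain Lamb2 and the kinase Cdk16 (r = 0.89, 0.89 and 0.88; rho = 0.87, 0.94 and 0.84; r = 0.80, 0.93 and 0.83), of which Lamb2 rose by 0.76.

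Foxo3 deviations were nearest to those of Actl6a, Selenoh and Phip (r = 0.90, 0.86 and 0.83), none of which was called. For Fbxo30 they were Col8a1, Gm32219 and Prr14l (r = 0.87, 0.87 and 0.86), also not called; r fell to 0.61, 0.48 and 0.67 without the 2 farthest arrays. For Fbxo31 they were the histone methyltransferase Kmt5a, Lipt1 and Noc4l (r = 0.91, 0.87 and 0.85), and for Klf15 the DNA methyltransferase Dnmt1, C1qbp and Mturn (r = 0.90, 0.88 and 0.87). With 12 arrays and 9096 genes searched, high values arise for every gene, and nothing about shared control follows from them.

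The rest of the pathway was described with 7 lists of 172 distinct genes, written with earlier results of these data known. Of these genes 145 were tested, and 34 were called higher and 26 lower. Over all genes tested the shares were 14.9% higher and 11.8% lower, and each list count below is to be read beside them. No excess of a list over these shares was tested. Of these 60 called genes, 34 had another probe set above the dim limit, and for 8 of them at least 1 such probe set had a difference of opposite sign.

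The list of FoxO target genes outside the members held more higher than lower calls. Of 30 tested genes of this list, 13 were higher, 2 lower and 15 were not called, with a median difference of 0.23, beside 14.9% and 11.8% of all genes and their median of 0.03. The count of higher calls was 8 with averaged probe sets and 9 with median centring. Pdk4, the kinase that shuts off pyruvate dehydrogenase, had intensities of 36196 to 47870 in mini-muscle and 23301 to 27695 in regular muscle (0.70, SE 0.08, adjusted p = 5.3e-06). Sesn3, a sestrin that restrains mTORC1, was 1.88-fold higher, at 1867 to 2698 against 848 to 1572 (0.91, SE 0.14, adjusted p = 1.3e-04). A second Sesn3 probe set gave 1.10. Usp14, a proteasome-associated deubiquitinase, differed by 0.63 (adjusted p = 1.9e-04), but its 3 dimmer probe sets gave 0.23, -0.01 and -0.04. Others of the 13 were Lpl and Pnpla2, which act in lipid use, Cat, which removes peroxide, and Gadd45a, which acts in growth arrest. Among autophagy genes of the list, Map1lc3a (0.41) and the cargo receptor Sqstm1 (0.25) rose, Ulk2 fell by 0.38, and Gabarapl1 (0.28), Bnip3 (0.01) and Map1lc3b (-0.05) did not pass.

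Upstream of FoxO, 4 of 22 tested genes were called higher and 2 lower, with a median of 0.02. Akt2, the Akt isoform of insulin-responsive tissue, was 3929 to 4724 in mini-muscle and 2236 to 3627 in regular muscle (0.62, SE 0.11, adjusted p = 3.1e-04), with 1.24 and -0.07 at its other probe sets. Ywhae, a 14-3-3 protein, fell by 0.47 (SE 0.07, adjusted p = 9.9e-05), with further readings of -0.56, -0.45 and -0.23 on 3 probe sets. Sgk1, an Akt-related kinase that can also phosphorylate FoxO factors and responds to glucocorticoids, fell by 0.48 (adjusted p = 0.0013), with 1 of the regular-muscle arrays (16349) inside the mini-muscle range of 13832 to 17321. The 14-3-3 genes Ywhaz (-0.01) and Ywhag (-0.004) did not pass. Nor did the insulin receptor Insr (0.06), Igf1r (0.12), Akt1 (0.22) and the acetyltransferase Ep300 (-0.00).

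Transcriptional regulators of the ligases, including some that act through another regulator, moved both ways. Of 25 genes 6 were called higher and 2 lower, with a median of 0.10 (5 and 1 with median centring or averaged probe sets). Myog, myogenin, which activates Fbxo32 and Trim63 in denervated muscle, was 2121 to 3205 in mini-muscle and 421 to 1052 in regular muscle (1.99, SE 0.19, adjusted p = 5.6e-07). Its highest regular-muscle value, 1052, was on replicate 4, the array where Fbxo32 was also highest; the part of Myog in the Fbxo32 difference was not tested. Dach2, which represses Myog, was also higher, by 0.92 (SE 0.18, adjusted p = 7.7e-04). Smad3, a mediator of TGF-beta and activin signals, fell by 0.54 (SE 0.11, adjusted p = 9.3e-04).

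Among glucocorticoid and Klf15 target genes, 7 of 26 were called higher and 6 lower, with a median of 0.03. The alanine aminotransferases, which Klf15 can induce, went in opposite directions: cytosolic Gpt rose from 1365 to 1858 in regular muscle to 2512 to 3869 in mini-muscle (0.95, SE 0.11, adjusted p = 5.9e-06), whereas mitochondrial Gpt2 was 2667 to 5383 against 7298 to 9859 (-1.10, SE 0.14, adjusted p = 9.6e-06), with -1.26, -0.87 and -0.73 at its other probe sets. The aspartate aminotransferase Got1 rose by 0.62 (adjusted p = 8.3e-05). Genes known to respond to glucocorticoids were divided. The metallothioneins Mt2 (1.45, adjusted p = 0.0031) and Mt1 (0.79) and the transcription factor Cebpb (0.53) rose. The glucocorticoid receptor Nr3c1 fell by 0.52, Klf9 by 0.39 and the glutamine synthetase Glul by 0.49, though a second Glul probe set gave 0.03 and 1 of 5 further Klf9 probe sets gave 0.28. Fkbp5 (0.03), Per1 (0.03) and Tsc22d3 (-0.12) did not pass. In branched-chain amino acid breakdown, Bckdha, a subunit of the ketoacid dehydrogenase, rose by 0.57 (adjusted p = 0.0014), while its partner subunit Bckdhb (0.07), its kinase Bckdk (0.23) and the aminotransferase Bcat2 (-0.22) did not pass. With each gene averaged over its probe sets, 5 genes of the list were called higher and 2 lower.

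Of the other ubiquitin ligases of muscle, 3 of 20 fell and 1 rose, with a median of -0.03; with averaged probe sets 1 was called lower. Trim54 (MuRF3), a close relative of Trim63, fell 1.46-fold, from 19445 to 24285 in regular muscle to 13789 to 18301 in mini-muscle (-0.54, SE 0.08, adjusted p = 4.5e-05). Wwp1 fell by 0.39 (adjusted p = 0.0034) and Ube3a by 0.42 (adjusted p = 0.0060) on their brightest probe sets, and the others gave -0.00 and -0.17 for Wwp1 and 0.01 and -0.19 for Ube3a. Asb2, named as the only one that rose, did so by 0.30 (adjusted p = 0.035).

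The cofactors through which SCF and other ligases work included 7 of 15 tested genes that fell and 2 that rose, with a median of -0.16. With median centring 4 were called lower and 2 higher, and with averaged probe sets 4 and 1. The ubiquitin-conjugating enzymes Ube2e1 and Ube2d1 fell by 0.80 (SE 0.10, adjusted p = 9.6e-06) and 0.67 (SE 0.10, adjusted p = 5.6e-05), and neither gene overlapped between the groups. The enzymes of this kind did not all fall. Ube2g2 rose by 0.67 (SE 0.11, adjusted p = 2.0e-04), with 0.09 at its second probe set, and Ube2d3 (-0.01) did not pass. The other gene of the list that rose was Usp14. Skp1, the adaptor that joins F-box proteins such as Fbxo32 to Cul1, fell by 0.55 (adjusted p = 3.0e-04) and by 0.71 at its second probe set, while Cul1 differed by -0.16 (adjusted p = 0.19). The calls of Ube2j1 (-0.55) and Ube2g1 (-0.29) are uncertain, since their second probe sets gave 0.20 and 0.10.

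Among proteins described as substrates or partners of these ligases, 3 of 16 transcripts rose and 6 fell, with a median of -0.15. This balance depended on the scaling: 3 were called higher and 2 lower with median centring, and 3 and 4 after quantile normalization. Mybpc1, slow myosin-binding protein C, was 2.04-fold higher (1.03, SE 0.10, adjusted p = 6.9e-07), and desmin, Des, 1.80-fold higher (0.85, SE 0.09, adjusted p = 2.5e-06). A second, dimmer Des probe set gave 0.27 (SE 0.17) and was not called (adjusted p = 0.44 over all single-gene probe sets). Myoz1, calsarcin of fast fibres, fell by 0.51 (adjusted p = 8.7e-06). Eif3f, the initiation factor subunit that Fbxo32 marks for degradation, fell by 0.32 (adjusted p = 0.021), and Myod1, another Fbxo32 substrate, differed by 0.46 without passing (adjusted p = 0.077).

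**Figure D4:**
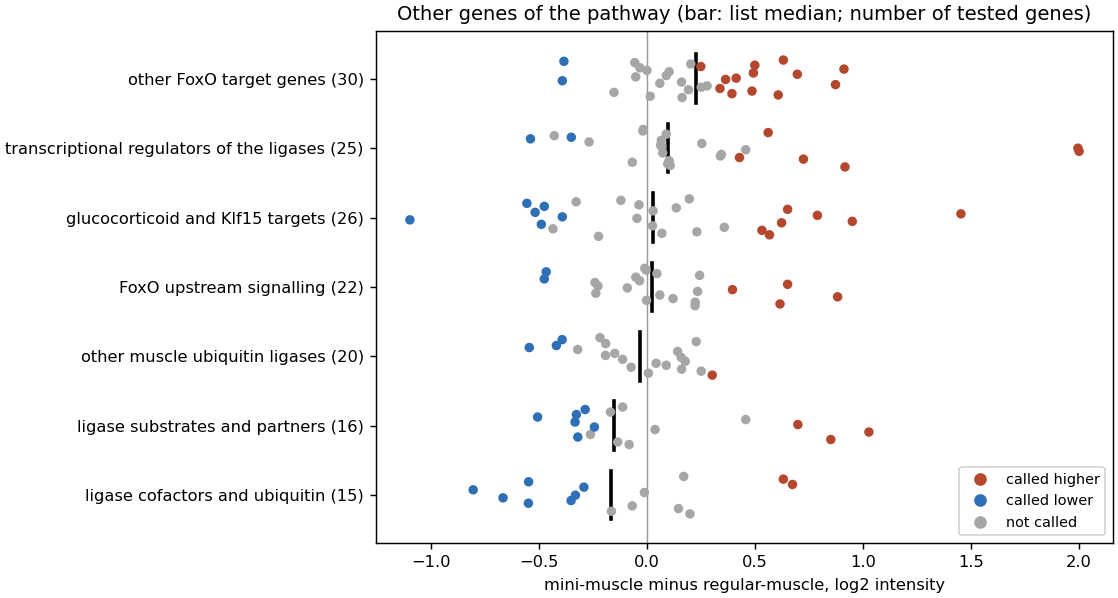
Difference in log2 intensity, mini-muscle minus regular-muscle (horizontal axis), of each tested gene in the 7 pathway lists, coloured by call, with the list median as a bar and the number of tested genes in brackets. The FoxO target list has the highest median (0.23) and the list of ligase cofactors the lowest (-0.16); each dot is 1 gene, and some genes are in several lists.

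The summed intensity of 10 myofibre markers was 1080930 to 1242085 in mini-muscle and 1188645 to 1482096 in regular muscle. Within that sum 3 markers were called higher, Actn2 (1.11), Myh1 (0.29) and Ryr1 (0.25), and 3 lower, the fast myosin Myh4 (-1.33), Casq1 (-0.41) and Tnnt3 (-0.29). Each array had the same trimmed mean of 800.0 intensity units. The summed intensity of 7 fibroblast markers was 26372 to 46283 in mini-muscle and 47684 to 73410 in regular muscle (5 of 7 called lower), and that of 5 tendon markers 6192 to 12038 against 16791 to 19678 (4 of the 4 tested called lower). For 7 macrophage markers the sums were 4096 to 5916 and 5197 to 8364 (3 of the 5 tested called lower). For 7 endothelial markers they were 6365 to 8898 and 5569 to 8545 (1 of the 6 tested called higher). The part of these shifts in the member differences was not tested. Regular-muscle replicate 4 had the highest Fbxo32 intensity of its group. It was the regular-muscle array nearest to the mini-muscle mean for 27.2% of the 1356 genes called higher and 32.8% of the 1070 called lower. The other 5 regular-muscle arrays gave 10.9% to 18.9% and 7.94% to 20.7%. Without replicate 4, the pathway lists held 36 genes called higher and 26 called lower.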

How the data were processed

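The deposited values are linear probe set intensities made by the authors with MAS5, per the submitters' processing notes; neither version nor settings is named in the labels. Every array had the same trimmed mean when checked. The number of arrays, not depth, limits the precision, and the p-values measure the spread between these samples.

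The log2 of each intensity was taken with no offset. For each of 18194 genes the probe set with the highest mean was used, and the 9097 genes above log2 8.56 were tested with limma (version 3.58.1, R 4.3.3; lmFit, eBayes with an intensity trend, two-sided, Benjamini-Hochberg over all genes). All 34958 single-gene probe sets were fitted the same way, without the dim limit. Members were also compared by exact permutation of the arrays, two-sided. Correlations use deviations from group means and carry no p. The fit was tested on simulated data. Symbols follow the platform annotation.

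The members, lists and named genes were chosen with earlier results of these data known. Named genes are the members, the 3 called genes with the smallest adjusted p in every list and the 3 genes most like each member. Other genes were named after their values were seen.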

Additional observations from a re-analysis of the deposited data

Results flagged for a closer look

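Among the 40 groups of 6 arrays (20 probe sets in 2 groups), 2 held an array far from the other 5, and chance gives about 1 in 20. For the dim Foxo3 probe set 1450236_at, regular-muscle replicate 3 was at log2 6.82, where the other regular-muscle arrays lay between 4.89 and 5.41. For the Fbxo30 probe set 1436550_at, regular-muscle replicate 4 was the lowest at log2 8.54, with the others at 9.38 to 9.78; without that array the Fbxo30 difference there was 0.43 (limma, adjusted p = 0.19), against 0.60 with it.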

How the results depend on the processing

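Of the 8 members, 1 was called higher and 1 lower. The number called higher was 2 after quantile normalization, with the brightest of the genes alone and with array weights, Trim63 being the added gene, and 1 to 2 when 1 array at a time was left out. The number called lower was 0 with median centring and when each gene was averaged over its probe sets. Among the 20 probe sets, the number called lower was 0 with median centring and without an intensity trend, and 0 to 1 when 1 array at a time was left out (0 without mini-muscle replicates 1, 4, 5 or 6 or regular-muscle replicates 2, 3 or 6). The pathway lists held 26 genes called lower, and 16 with median centring and 16 with the mean of probe sets. Foxo1, Foxo3, Fbxo31 and Klf15 were called under none of 22 alternatives each. Fbxo32 was called under 21 of 22, all of which read its brightest probe set alone. They therefore do not weigh the other 2 Fbxo32 probe sets, which gave no rise. The 1 alternative that averaged all its probe sets lost the call (0.20, limma adjusted p = 0.52). The Fbxo32 probe set ratios were called under all 15 alternatives run for them (1.20 to 1.39 and 1.16 to 1.28). The causes of these changes were not tested. The ratio fit and its alternatives were chosen after seeing the data. No paired analysis was possible because the groups are different animals of different lines and the labels give no pairing.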
